A study of Mus musculus with 3 samples.

Results

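In the ethanol control library, 638 mouse embryonic stem cells held 3 or more Fos UMIs (unique molecular identifiers, each marking 1 captured RNA molecule). They were 29.2% (95% exact binomial interval 27.3 to 31.1) of the 2187 control cells with at least 15000 UMIs and 1 to 20% of UMIs from mitochondrially encoded genes, and 6480 cells met these limits in all 3 libraries. They are called Fos-high cells here and were set against the 881 control cells with 0 Fos UMIs, called Fos-zero cells. A further 668 control cells held 1 or 2 Fos UMIs. Every library came from E14, an established mouse embryonic stem cell line (129/Ola background), kept in serum and leukemia inhibitory factor (LIF). Control cells received 0.007% ethanol for 6 h from 24 h after seeding, and the other libraries came from cells given 250 µg/mL cycloheximide, which blocks translation elongation, in the same ethanol for 3 h or 6 h. Each condition had 1 library, so cells are not replicates, no test was possible and no p-value is given. Cells had been detached with trypsin, frozen and thawed before capture with 10x Genomics 3' chemistry.

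Fos encodes a subunit of AP-1, a dimeric transcription factor made of Fos and Jun family proteins. Fos, Jun, Egr1 and related immediate early genes are transcribed within minutes of a growth factor, serum or stress signal through ERK and other kinases, without new protein synthesis, and their RNAs are short-lived. In embryonic stem cells, ERK signalling and LIF act in opposite directions on the exit from pluripotency.

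Every cell was thinned to 15000 UMIs after grouping, and levels are the share of a gene in these thinned UMIs, summed over the cells of a group and scaled to counts per 1000000 (CPM). Ratios are Fos-high over Fos-zero cells on the log2 scale, with 95% exact conditional binomial intervals. All intervals cover counting error only and leave out differences between cultures, thawing and library preparations. The cells were chosen by their Fos UMIs, so the Fos values are a description. Unthinned Fos counts in Fos-high cells had a median of 5 and a maximum of 31, and these cells held 81.5% of the Fos UMIs of the 2187 control cells. After thinning, Fos stood at 120 CPM in Fos-high cells, and 75.1% of them still held a Fos UMI. Barcodes with 10 to 100 UMIs, which hold free RNA rather than cells, had Fos at 35.0 CPM.

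Because the groups were formed on unthinned counts, Fos-high cells were deeper, with a median of 53481 UMIs against 38498 in Fos-zero cells. Fos-high cells with over 2 times the library's median UMIs numbered 127 (19.9%), against 24 (2.72%) Fos-zero cells. No doublets were removed, and whether such barcodes hold more than 1 cell was not tested. The median mitochondrial share was 4.80% in Fos-high and 4.34% in Fos-zero cells, and the median number of genes per thinned cell was 3775 against 3733. By the S and G2M gene scores, 48.9% (45.0 to 52.9) of Fos-high cells were called G2M against 43.6% (40.3 to 46.9) of Fos-zero cells. Only 4 of the 2187 control cells (0.183%) were called G1, so the scores split nearly all cells between S and G2M. Cells in G1 were therefore not set apart by these calls. Of the cell barcodes, 3 were shared between the control and the 3 h library and 3 between the control and the 6 h library, and 1 of these belonged to a Fos-high cell. The libraries held 115188502 to 150987519 UMIs.

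The cells carried embryonic stem cell transcripts at like levels in both groups. Pou5f1, the core pluripotency factor Oct4, stood at 521 CPM in Fos-high and 532 CPM in Fos-zero cells, and Nanog at 125 and 122 CPM. All 8 stem cell markers looked at were past the floor of 10 CPM, with log2 ratios between -0.13 and 0.15. Egr1 and Ier2, the markers named with Fos for these cells, differed from each other in this respect. Egr1, an immediate early zinc finger factor, was 20.5 CPM in Fos-high and 6.28 CPM in Fos-zero cells. Ier2, a nuclear immediate early protein, was 189 and 176 CPM, and 91.8% and 91.3% of thinned cells held an Ier2 UMI. The counting intervals of both ratios lay above equality, but Ier2 was close to it. Egr1 was under the floor of 10 CPM in Fos-zero cells.

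Of the 7245 genes other than Fos whose mean level over both groups reached 10 CPM, 21 (0.29%) were at least 1.5-fold higher in Fos-high cells and 5 (0.069%) at least 1.5-fold lower. Most genes lay close to equality, with a median log2 ratio of -0.0044, a 5th percentile of -0.23 and a 95th percentile of 0.26. The counting interval lay above equality for 574 genes (7.92%) and below it for 646 (8.92%). The largest ratios belonged to Jun, Egr1 and Fosb. Among the 21 genes, 5 were immediate early genes (Jun, Egr1, Fosb, Jund and Klf6), out of 26 such genes other than Fos that were looked up and 15 that passed the floor. Of the 21 genes, 11 were under 10 CPM in Fos-zero cells and so passed the floor only through the Fos-high group, Jun and Egr1 among them. Another random thinning also gave 21 higher genes, of which 14 were the same. With Fos-zero cells weighted to the depths of Fos-high cells the count was 45, with 17 of the 21 among them. Jun, Egr1, Fosb, Gm26532, Lefty1, Lpin1 and Ptpn14 were past 1.5-fold in all 14 settings compared, and 5 of these 7 passed the floor only through the Fos-high group. Of the 21, 20 had a positive ratio in all 14 settings, the exception being Col4a1. The 14 settings leave out changes of floor and prior. They largely re-use the cells in which the 21 were chosen, so this agreement was mostly fixed in advance.

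**Figure D1:**
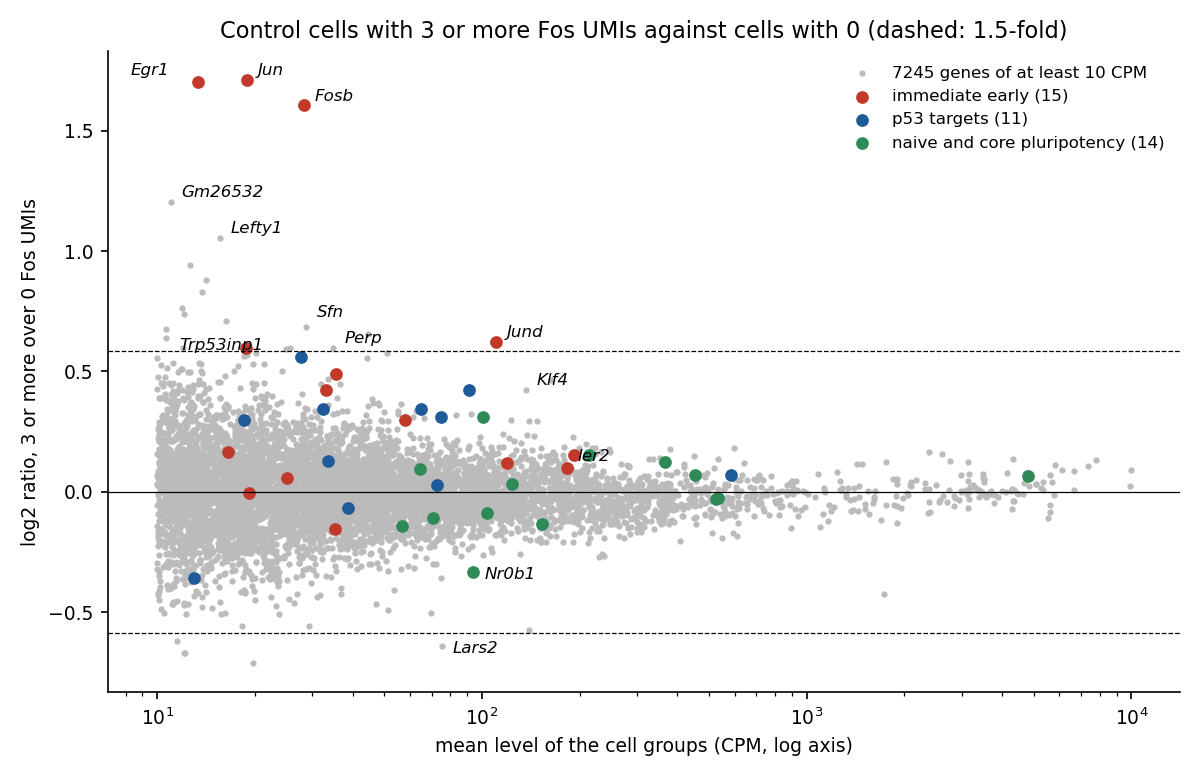
Log2 ratio of Fos-high over Fos-zero control cells (vertical) against the mean level of both groups in CPM (horizontal, log axis), 1 point per gene past 10 CPM, with the immediate early, p53 target and pluripotency lists coloured and dashed lines at 1.5-fold. Jun, Egr1 and Fosb sit at 1.60 to 1.71, above all other genes plotted, whereas Ier2 sits at 0.10.

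The AP-1 subunits had the highest median ratio of the lists looked up. Of 8 subunits and AP-1 partners looked up, 4 passed the floor, and Jun did so only through the Fos-high group. All 4 had intervals above equality, where 7.92% of all genes did, with a median log2 ratio of 1.11. Jun, the founding AP-1 partner of Fos (chromosome 4, 95049034 to 95052222, GRCm38), was 29.0 CPM (25.7 to 32.7) in Fos-high and 8.85 CPM (7.32 to 10.6) in Fos-zero cells, a 3.27-fold difference (log2 1.71, interval 1.40 to 2.04). Fosb, the nearest relative of Fos (chromosome 7, 19302696 to 19310051), was 42.6 CPM against 14.0 CPM (log2 1.60, 1.35 to 1.87). A thinned Jun UMI was present in 27.0% of Fos-high and 11.1% of Fos-zero cells, and a Fosb UMI in 40.0% and 15.3%. So most cells with Fos RNA had no captured Jun RNA at this depth, and the difference lay in the share of cells as well as in the sum.

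Jund, an AP-1 subunit that many cells make without a stimulus (chromosome 8, 70698949 to 70700616), was 134 CPM against 87.2 CPM (log2 0.62, 0.51 to 0.74). Junb, another Jun family partner of Fos, was 63.8 CPM against 52.0 CPM (log2 0.30, 0.14 to 0.46). The Jun and Fosb intervals lay entirely above those of Jund and Junb. The remaining partners were below the floor. Atf3, a stress-induced relative, was 9.40 CPM against 4.39 CPM (log2 1.10, 0.61 to 1.60). Fosl1, Fosl2 and Batf3 had at most 18 UMIs in either group, and all 3 intervals included equality.

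Free RNA in droplets can add UMIs to cells, and no cell type known to lack these genes was available as a background. The barcodes of 10 to 100 UMIs held a mean of 53.5 UMIs, against a median of 38498 in Fos-zero cells. Within them, Jun was 9.17 CPM, Fosb 18.3 CPM and Egr1 14.5 CPM. These values describe the make-up of free RNA and not the amount of it in a cell, and its part in the cells' UMIs was not tested.

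The stretches that precede the transcription start of these genes are shown because the genes were high in the same cells. Promoter sequences were taken from RefSeq on GRCm38.p6 for 11 of 13 genes looked up, and Egr1 and Ier2 were not matched. The 11 were Fos, Fosb, Jun, Junb, Jund, Atf3, Klf6, Dusp1, Btg2, Ppp1r15a and Klf4. Each sequence covers the 250 bases before the RefSeq start, written in the direction of transcription. Capitals mark the letters TGACG, TGACGTCA and TGANNTCA, forms of the site read by the ATF and CREB factors and by Jun dimers. Fos (chr12:85473640-85473889, plus strand) holds TGACG at 129 and at 66 bases before its start, and Fosb (chr7:19310046-19310295, minus strand) holds it at 60. Jun (chr4:95052223-95052472, minus strand) holds TGACATCA, a form of TGANNTCA, at 45 bases before its start.
Fos: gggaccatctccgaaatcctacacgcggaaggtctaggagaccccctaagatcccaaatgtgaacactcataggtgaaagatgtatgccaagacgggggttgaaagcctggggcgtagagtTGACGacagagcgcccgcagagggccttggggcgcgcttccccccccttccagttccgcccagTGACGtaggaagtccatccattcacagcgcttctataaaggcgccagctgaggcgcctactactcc
Fosb: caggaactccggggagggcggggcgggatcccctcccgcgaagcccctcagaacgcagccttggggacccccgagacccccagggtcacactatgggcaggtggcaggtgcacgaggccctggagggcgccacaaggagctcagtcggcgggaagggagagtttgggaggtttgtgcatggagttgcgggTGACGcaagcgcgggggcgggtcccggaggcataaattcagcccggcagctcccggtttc
Jun: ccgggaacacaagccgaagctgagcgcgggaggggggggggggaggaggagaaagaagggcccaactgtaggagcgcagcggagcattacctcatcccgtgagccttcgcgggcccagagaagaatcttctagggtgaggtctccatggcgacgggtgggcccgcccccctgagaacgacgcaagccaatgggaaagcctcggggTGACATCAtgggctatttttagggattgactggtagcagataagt

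On either strand, TGACG was found in 8 of the 11 promoters, TGANNTCA in 6 and TGACGTCA in 3, and every TGACGTCA is also counted under TGACG and TGANNTCA. Of 32851 RefSeq promoter windows of the same length, 17.8% held TGACG, 11.9% TGANNTCA and 1.55% TGACGTCA. The CArG box, read by the serum response factor SRF, was in 0 of the 11 windows and in 1.47% of all. This says only that these letters are not within 250 bases of these 11 starts, and Egr1 and Ier2 were not among them. The 11 genes were picked among those higher in Fos-high cells, Fos by the rule itself. Immediate early genes that were level here, such as Nr4a1, Myc and Klf10, were not looked up. So the motif shares cannot be tied to the Fos-high cells. The promoters with the full TGACGTCA were those of Dusp1 (chr17:26508473-26508722, minus strand), Btg2 (chr1:134079156-134079405, minus strand) and Ppp1r15a. The first 2 are shown because their transcripts are described next, and a match is a description of the letters and not of a bound site.
Dusp1: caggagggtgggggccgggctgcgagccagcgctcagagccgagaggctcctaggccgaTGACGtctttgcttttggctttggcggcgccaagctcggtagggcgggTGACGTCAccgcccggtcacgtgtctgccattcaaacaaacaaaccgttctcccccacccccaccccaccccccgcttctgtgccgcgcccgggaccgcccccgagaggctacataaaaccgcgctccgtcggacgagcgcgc
Btg2: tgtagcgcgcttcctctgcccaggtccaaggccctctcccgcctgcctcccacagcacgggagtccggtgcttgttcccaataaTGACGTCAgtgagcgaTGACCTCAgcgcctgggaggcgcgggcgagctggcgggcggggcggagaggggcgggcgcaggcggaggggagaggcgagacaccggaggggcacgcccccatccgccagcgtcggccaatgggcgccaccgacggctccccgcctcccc

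Among the other immediate early regulators, differences were smaller and not shared by all. Of 18 genes, 11 passed the floor, Egr1 only through the Fos-high group. Among them 7 had intervals above equality and 0 below (7.92% and 8.92% of all genes), and their median log2 ratio was 0.15. Egr1 was the largest (log2 1.70, 1.33 to 2.09), with a thinned UMI in 21.5% of Fos-high and 7.15% of Fos-zero cells. Klf6, a zinc finger factor, followed at 22.6 CPM against 14.9 CPM (log2 0.60, 0.31 to 0.88). Btg2, an antiproliferative protein that recruits the deadenylase complex, was 41.5 CPM against 29.6 CPM (log2 0.49, 0.28 to 0.69). Ppp1r15a, which directs a phosphatase to the initiation factor eIF2 alpha, was 37.8 CPM against 28.2 CPM (log2 0.42, 0.21 to 0.63). Ier2 (log2 0.10, 0.01 to 0.19), Klf2 (0.15, 0.07 to 0.24) and Mcl1 (0.12, 0.01 to 0.23) had intervals just above equality. With TMM or median-of-ratios factors 5 of the 11 had intervals above equality, and Ier2 was not among them.

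Several genes of the classical serum response were within counting error of equality. Nr4a1, an orphan nuclear receptor, was 19.1 CPM in Fos-high and 19.2 CPM in Fos-zero cells (log2 -0.01, -0.29 to 0.27). Myc was 33.4 CPM against 37.2 CPM (log2 -0.15, -0.36 to 0.05) and Klf10 25.6 CPM against 24.6 CPM (log2 0.06, -0.19 to 0.30). The upper bounds of all 3 lie below the lower bound of Jun. Egr2 and Egr3 had 1 and 2 UMIs in Fos-high cells and 0 and 1 in Fos-zero cells, too few for a ratio.

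The feedback genes of ERK signalling behaved unequally. Of 18 genes on the list, 13 passed the floor, 3 had intervals above and 2 below equality (7.92% and 8.92% of all genes), and their median log2 ratio was -0.0020. Without thinning 6 were above and 1 below, with a median of 0.064. Dusp1, a phosphatase that inactivates MAP kinases, was 24.1 CPM against 16.2 CPM (log2 0.58, 0.30 to 0.85), and Phlda1, an ERK-induced gene, was 40.7 CPM against 31.0 CPM (log2 0.39, 0.19 to 0.59). Spred1, an inhibitor of the Ras to ERK pathway, was 37.2 CPM against 43.7 CPM (log2 -0.23, -0.43 to -0.04). Of the SRF and cytoskeleton genes, 9 of 18 passed the floor, with 4 intervals above and 1 below equality and a median of 0.036. Krt8, an epithelial keratin, was the largest at 0.29 (0.04 to 0.53), and was 0.01 (-0.25 to 0.27) once the few cells with UMIs of endoderm regulators were left out, when 2 intervals of the list lay above equality. With another thinning the median of the list was -0.042. Of 7 mRNA decay factors, 6 passed the floor and 2 had intervals above equality, Btg1 at 0.49 (0.16 to 0.83) and Zfp36l1, which binds AU-rich elements, at 0.22 (0.08 to 0.35).

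Levels were then followed over the number of unthinned Fos UMIs per cell, with 881, 402, 266, 175, 210 and 253 cells at 0, 1, 2, 3, 4 to 5 and 6 or more. Jun was 8.85, 13.4, 10.8, 18.3, 21.0 and 43.2 CPM in these classes. Fosb was 14.0, 21.9, 30.6, 35.4, 34.3 and 54.5 CPM, and Egr1 was 6.28, 12.4, 15.3, 11.8, 15.2 and 30.8 CPM. Just inside and just outside the limit, at 3 against 2 Fos UMIs, Jun was 18.3 against 10.8 CPM, Fosb 35.4 against 30.6 CPM, and Egr1 11.8 against 15.3 CPM. The highest class stood apart for most of these genes. Btg2 stayed between 23.8 and 33.9 CPM below 6 Fos UMIs and was 53.8 CPM (46.6 to 61.7) above, and Dusp1 stayed between 15.2 and 20.6 CPM and was 34.3 CPM (28.6 to 40.7) above. Jund had a higher value in each class than in the one before, from 87.2 to 145 CPM. Ier2 lay between 171 and 184 CPM up to 5 Fos UMIs and was 204 CPM (190 to 219) at 6 or more.

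**Figure D2:**
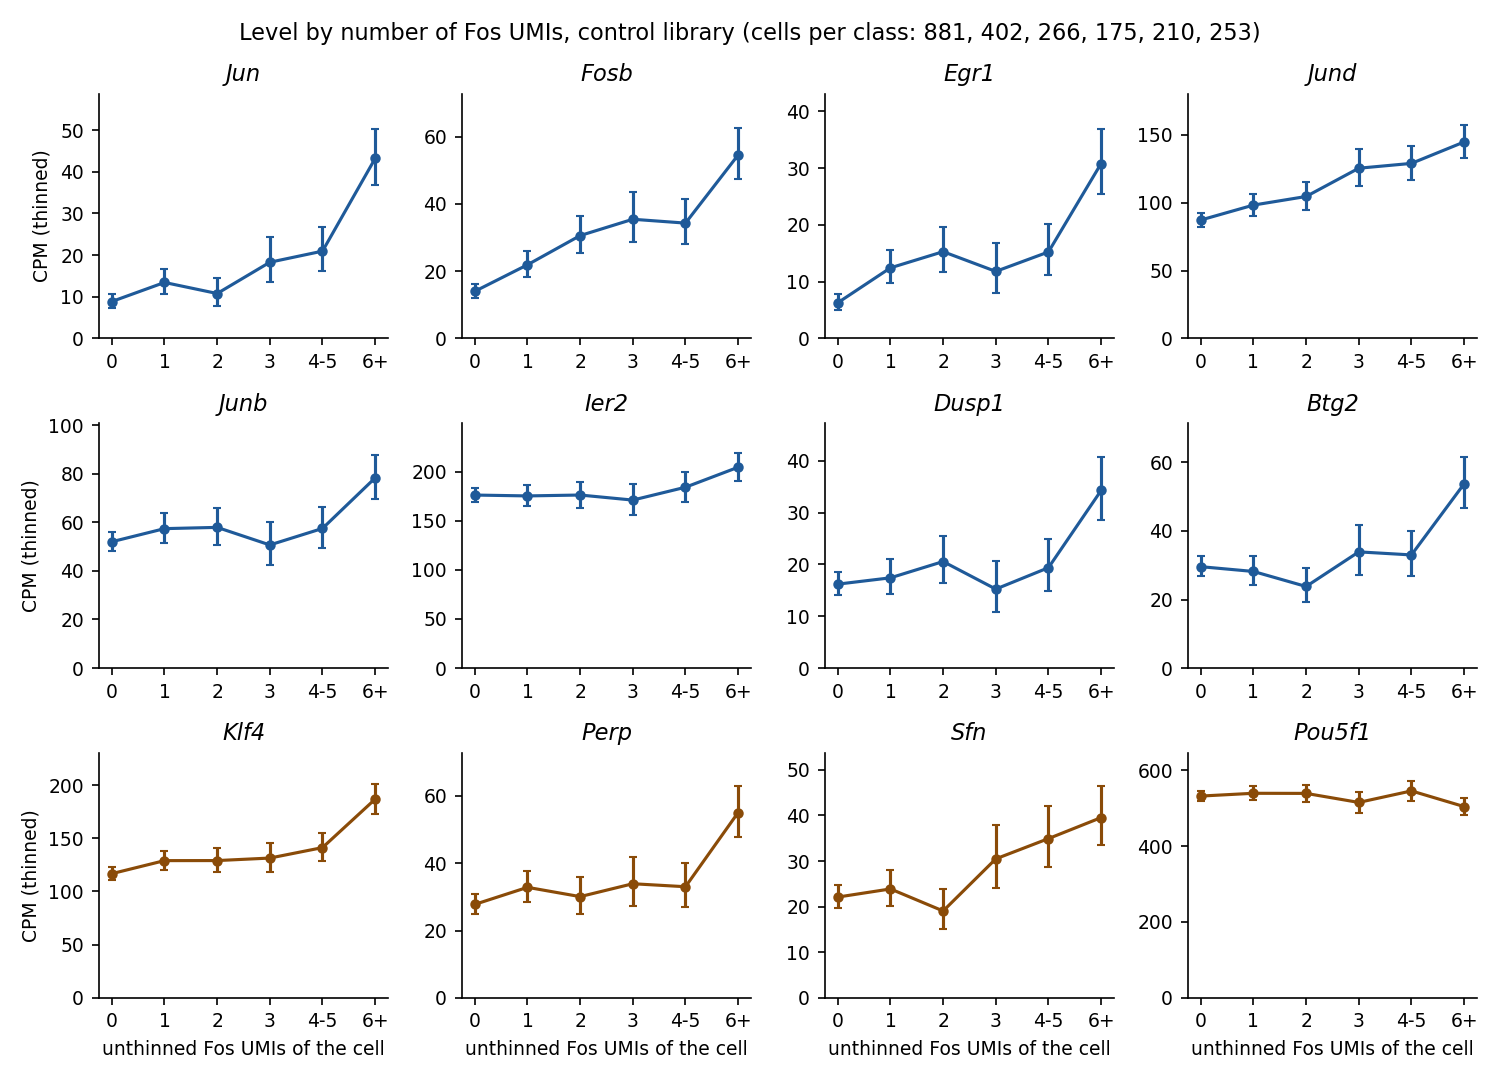
CPM after thinning (vertical, from 0) against the unthinned number of Fos UMIs of a control cell (horizontal), for 8 immediate early genes (blue) and 4 others (brown), with 95% Poisson counting intervals. Jun, Btg2, Dusp1 and Perp have their highest point in the class of 6 or more Fos UMIs, and Pou5f1 is level between 504 and 545 CPM.

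Jun, Fosb and Egr1 transcripts were next counted cell by cell. Of the 638 Fos-high cells, 250 (39.2%, 35.4 to 43.1) held no thinned UMI of Jun, Fosb or Egr1, against 640 of 881 Fos-zero cells (72.6%, 69.6 to 75.6). All 3 genes were seen in 32 Fos-high (5.02%) and 4 Fos-zero cells (0.454%). Among Fos-high cells, a cell with 1 of these transcripts held another more often than a cell without it. Cells with a Jun UMI held Fosb in 49.4% (41.7 to 57.1), and those without in 36.5% (32.1 to 41.0). For Egr1 in cells with and without Jun, the shares were 29.7% (22.9 to 37.1) and 18.5% (15.0 to 22.3). Egr1 cells also held Dusp1 more often, in 39.4% (31.2 to 48.1) against 23.4% (19.7 to 27.3). For Dusp1 in cells with and without Fosb the intervals overlapped, at 25.5% (20.3 to 31.3) and 27.7% (23.3 to 32.4). These shares are at equal thinned depth, and the cells with Jun, Fosb or Egr1 had fewer unthinned UMIs than those without (for Jun, medians of 48690.5 and 55195.5).

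Depth was examined directly, since the Fos-high cells were deeper. With Fos-zero cells weighted to the same unthinned depths, the log2 ratios were 1.94 for Jun, 1.63 for Fosb, 1.64 for Egr1, 0.51 for Jund and 0.71 for Dusp1. Without weights they were 1.71, 1.60, 1.70, 0.62 and 0.58. Within 4 bins of unthinned depth, Jun had log2 ratios of 2.36, 1.23, 1.83 and 2.89, and Egr1 of 2.23, 2.23, 1.00 and 1.15, from the shallowest bin to the deepest. Fosb had 1.92, 1.66 and 2.32 in the first 3 bins and 0.17 (-0.65 to 1.19) in the deepest, which held 160 Fos-high and only 34 Fos-zero cells. In S-called cells Jun had 1.78 and in G2M-called cells 1.56, and Egr1 had 1.77 and 1.67. Dusp1 was 0.29 (-0.08 to 0.66) in S and 1.01 (0.58 to 1.46) in G2M, and Atf3 was 1.59 (0.86 to 2.40) in S and 0.45 (-0.24 to 1.16) in G2M. These phase differences were not tested.

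**Figure D3:**
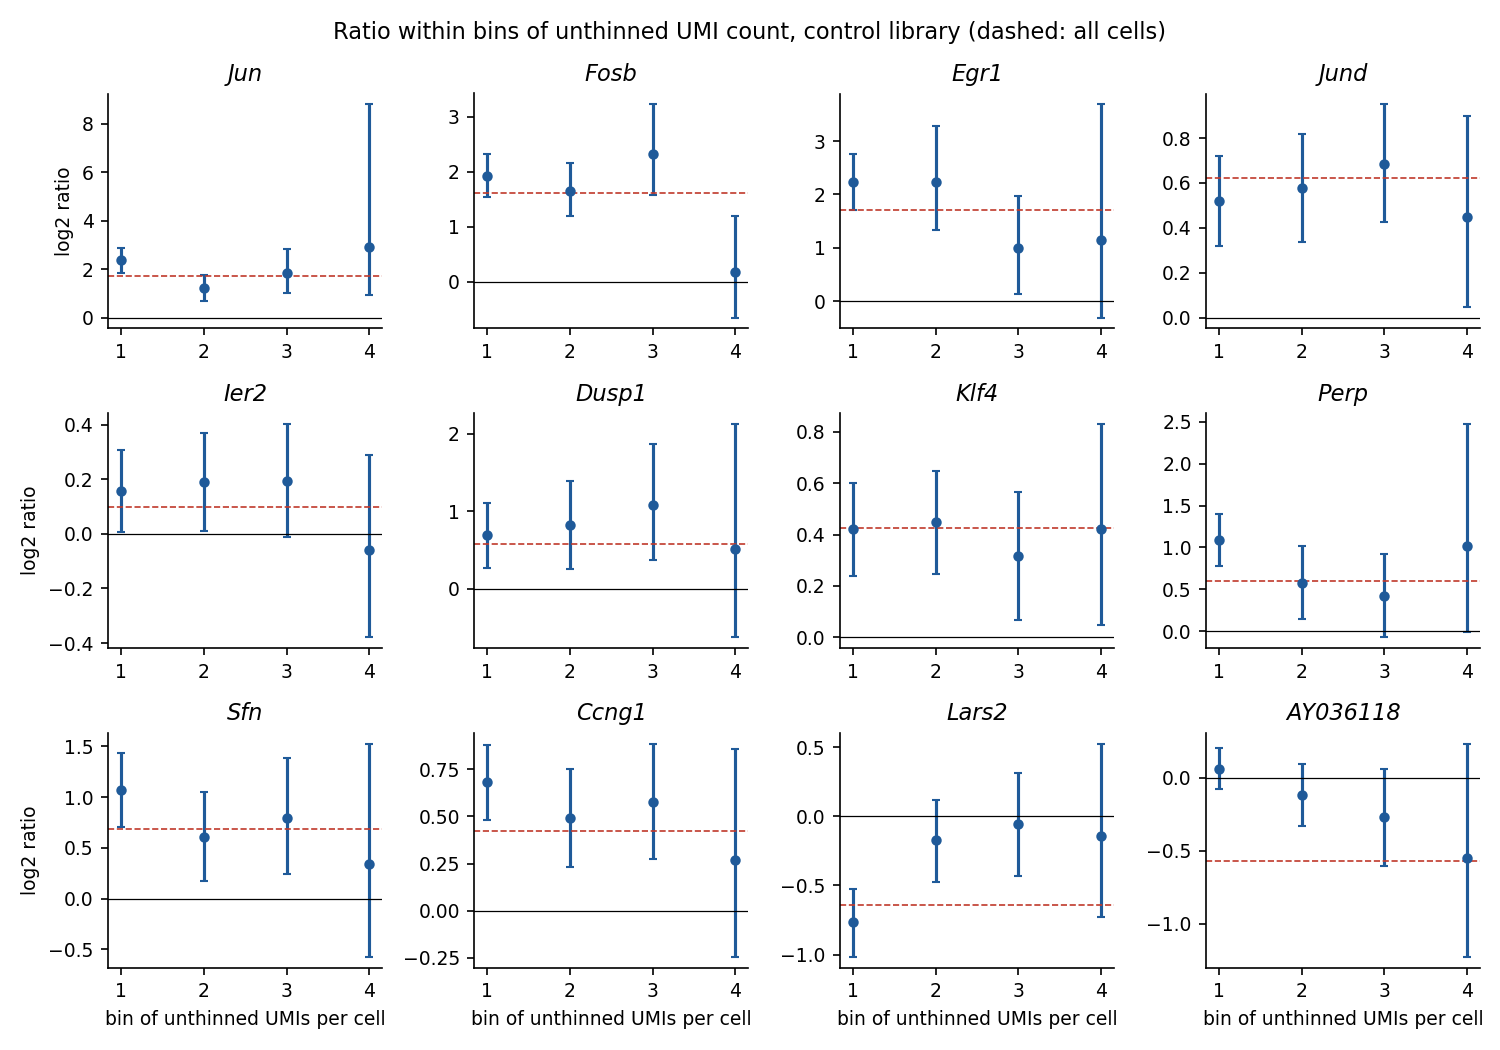
Log2 ratio of Fos-high over Fos-zero control cells (vertical, own scale in each panel) in 4 bins of unthinned UMIs per cell (horizontal, shallowest to deepest), with 95% counting intervals, a solid line at 0 and a dashed line at the ratio over all cells. Jun and Jund lie above 0 in all 4 bins, while AY036118 goes from 0.06 in the shallowest bin to -0.55 in the deepest and Lars2 lies at -0.76 in the shallowest bin and between -0.17 and -0.06 in the others.

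Several genes activated by p53, the transcription factor of the DNA damage response, were higher in the Fos-high cells by small amounts. Of 13 p53 targets, 11 passed the floor, 7 had intervals above equality and 1 below, with a median log2 ratio of 0.30, where 7.92% of all genes lay above and 8.92% below. Trp53inp1, a proapoptotic and autophagy gene, was 33.1 CPM against 22.5 CPM (log2 0.56, 0.33 to 0.79). Ccng1, cyclin G1, was 104 CPM against 77.7 CPM (log2 0.42, 0.30 to 0.55). Cdkn1a, the cell cycle inhibitor p21, was 36.4 CPM against 28.7 CPM (log2 0.34, 0.13 to 0.56), and Mdm2, the ubiquitin ligase of p53, was 82.9 CPM against 66.9 CPM (log2 0.31, 0.17 to 0.45). Phlda3 was at 0.34, Bbc3 at 0.30 and Bax, which permeabilizes mitochondria, at 0.069 (0.019 to 0.12). Gadd45b was the 1 target below equality, at 11.4 CPM against 14.6 CPM (log2 -0.36, -0.71 to -0.01). Its family relative Gadd45a was at -0.07 (-0.26 to 0.13), and the targets Aen and Zmat3 were at 0.029 and 0.13.

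Perp and Sfn are also known p53 targets but were not on that list. They are named because they were among the 21 genes past 1.5-fold in these cells, so their ratios add no support to the list. Perp, a desmosome and cell death protein, was 42.01 CPM against 27.8 CPM (log2 0.60, 0.39 to 0.81), and Sfn, the 14-3-3 sigma protein, was 35.5 CPM against 22.1 CPM (log2 0.68, 0.46 to 0.92). At 6 or more Fos UMIs against 0, the median of the p53 list was 0.56 over the same number of genes. Perp was 55.1 CPM (47.9 to 63.1) in that class and between 27.8 and 33.9 CPM in all classes below it. Among genes named after their values were seen, Dapk1, a death-associated kinase, was at 0.45 (0.23 to 0.67) and Xpc, a damage recognition factor of nucleotide excision repair, at 0.45 (0.19 to 0.72).

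The pluripotency network was level apart from a few members. Of 16 naive and core genes, 14 passed the floor, with 5 intervals above and 2 below equality (7.92% and 8.92% of all genes) and a median log2 ratio of 0.0026. Tbx3, a naive factor, was 112 CPM against 89.97 CPM (log2 0.31, 0.19 to 0.43), and Nr0b1, the nuclear receptor Dax1, was 83.4 CPM against 105 CPM (log2 -0.33, -0.46 to -0.21). Klf4, a naive factor downstream of LIF and STAT3, was 157 CPM against 117 CPM (log2 0.42, 0.32 to 0.53). Klf4 was above equality in all 4 depth bins, at 0.32 to 0.45. Socs3, the feedback inhibitor of LIF signalling, was at 0.23 (0.05 to 0.40), and these were the 2 of 11 measured LIF and STAT3 targets with intervals above equality, with 0 below. Lefty1, a Nodal antagonist, was 21.1 CPM against 10.1 CPM (log2 1.06, 0.74 to 1.38), and Lefty2 14.8 CPM against 11.05 CPM (0.43, 0.08 to 0.77). The other 9 measured genes of the formative and primed list included 0 intervals above equality and 1 below. That gene was Id1, at -0.10 (-0.18 to -0.03). Id1 is a repressor of differentiation, so its value does not describe formative or primed genes.

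Beyond these lists, the 21 genes included a mixed group. Gm26532, a noncoding transcript, was 15.4 CPM against 6.66 CPM (log2 1.20, 0.81 to 1.60). Lpin1, a phosphatidate phosphatase, was 16.6 CPM against 8.63 CPM (0.94, 0.59 to 1.31), and Ptpn14, a tyrosine phosphatase, was 17.7 CPM against 9.91 CPM (0.83, 0.50 to 1.17). Neat1, the noncoding scaffold of paraspeckles, was 54.4 CPM against 34.6 CPM (0.65, 0.47 to 0.84) and was seen in 48.9% against 33.6% of thinned cells. Neurod1, Abhd4, Alox8, Rpgrip1l, Ptp4a3, Smarcd3 and 1700007K13Rik had log2 ratios of 0.59 to 0.76. Rhox5, an X-linked homeobox gene (0.74, 0.38 to 1.10), was seen in 6.27% and 4.54% of thinned cells, so its sum rested on few cells, and its ratio was -0.31 (-0.84 to 0.20) in S-called and 1.83 (1.20 to 2.54) in G2M-called cells. Without the cells with endoderm regulators Rhox5 was at 0.37 (-0.02 to 0.76). Just under 1.5-fold lay Sdc4, a cell surface proteoglycan, at 0.58 (0.40 to 0.75), and 1500009L16Rik, Pex7, Myo1e and Bckdk at 0.47 to 0.55. S100a6, a calcium-binding protein named after its values were seen, was at 0.47 (0.37 to 0.56).

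Heat shock and integrated stress response genes had medians below equality. Of 15 heat shock chaperone and ubiquitin genes, 12 passed the floor, with 3 intervals above and 6 below equality (7.92% and 8.92% of all genes) and a median of -0.029. Hspa5, the main chaperone of the endoplasmic reticulum, was 380 CPM against 438 CPM (log2 -0.20, -0.26 to -0.14). Of 13 genes of the integrated stress response, 11 passed, with 1 interval above and 5 below and a median of -0.080, and its central factor Atf4 was at -0.14 (-0.22 to -0.06). With another thinning 3 genes of that list were above and 2 below, and with depth weights 0 and 3. Of 10 NF-kappaB targets only 3 passed the floor, with 1 interval above and 1 below. Of 36 S phase genes, 35 passed the floor, with 2 intervals above and 8 below equality and a median of -0.024. All 48 G2M genes passed, with 6 above and 2 below and a median of 0.018. Depth weights turned both medians, to 0.0014 for the S phase genes (3 above, 5 below) and -0.024 for the G2M genes (4 above, 10 below). The intervals under depth weights treat weighted sums as counts, so the numbers above and below equality there are approximate. The 13 mitochondrially encoded genes had a median of 0.11, with 9 intervals above and 2 below. The 76 cytosolic ribosomal protein genes had a median of 0.0027, with 20 intervals above and 16 below. Abundant genes have narrow intervals that exclude equality at small ratios, so counts for abundant lists do not compare evenly with the shares of all genes.

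Genes at least 1.5-fold lower in the Fos-high cells were few, and the ribosomal RNA overlaps and Lars2 were nearer to equality once depth was weighted. Lars2, the mitochondrial leucyl-tRNA synthetase, was 58.9 CPM against 91.9 CPM (log2 -0.64, -0.79 to -0.50) and -0.32 after depth weighting. AY036118, which overlaps a ribosomal RNA repeat, was 112 CPM against 167 CPM (-0.57, -0.68 to -0.47) and -0.02 after weighting, and Gm42418, another ribosomal RNA overlap named after its values were seen, was -0.42 and -0.16. All 3 were far more abundant in barcodes of 10 to 100 UMIs than in cells, with Lars2 at 10238 CPM, AY036118 at 8182 CPM and Gm42418 at 118951 CPM. The part of free RNA in these ratios was not tested. Plk4, the kinase of centriole duplication, was 57.9 CPM against 82.0 CPM (-0.50, -0.65 to -0.35) and -0.39 after weighting. Gm13075, B3gnt7, Rpl39l, Mex3a, Dancr and Slc16a1 had ratios of -0.56 to -0.46. The other 4 genes past 1.5-fold were Gm26885, Ntn1, Mir124a-1hg and Dleu2, with ratios of -0.71 to -0.62, and 0 of the 5 stayed past 1.5-fold in all 14 settings.

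Markers of other cell types were mostly scarce. None of 12 markers of two-cell-like cells had a UMI in either group, and no trophectoderm, mesoderm or blood marker passed the floor. Of 7 neuroectoderm markers 2 passed it, Neurod1 only through the Fos-high group, and the list summed to 99.8 CPM in Fos-high and 88.9 CPM in Fos-zero cells. Of 11 fibroblast markers 1 passed and 5 were at 0, with sums of 97.8 CPM and 91.3 CPM. Of the 12 primitive endoderm markers, 4 passed the floor and none was at 0, and their summed level was 230 CPM in Fos-high and 187 CPM in Fos-zero cells. Of the 4 past the floor, 3 had intervals above equality and Lama1 was level at 0.055. Col4a1 passed the floor only through the Fos-high group. The endoderm adaptor Dab2 was 3.66 CPM (35 UMIs) against 0.378 CPM (5 UMIs), the regulator Gata6 3.24 CPM against 0.681 CPM, and Sox17 0.940 CPM against 0.151 CPM. In cells with 6 or more Fos UMIs, Dab2 was 2.64 CPM, Gata6 3.16 CPM and Sox17 1.58 CPM. In that same class the regulator Sox7 went the other way, at 3.43 CPM against 4.92 CPM in Fos-zero cells. Its interval included equality (log2 -0.48, -1.51 to 0.35). Cells with 2 or more thinned UMIs of 7 endoderm regulators numbered 13 (2.04%, 1.09 to 3.46) Fos-high and 6 (0.681%, 0.250 to 1.48) Fos-zero cells. Without these cells, Col4a1, a basement membrane collagen, went from 0.88 (0.55 to 1.22) to -0.14 (-0.55 to 0.27) and Sparc, which binds collagen, from 0.17 to -0.01. The intervals of Krt8, Rhox5, Lamb1 and Tpm4 then also included equality, where they had not before. Lama1 then lay below equality, at -0.48 (-0.80 to -0.16). Jun stood at 1.55, Fosb at 1.52, Egr1 at 1.70 and Lefty1 at 1.02 without these cells.

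Applying the rule within the cycloheximide libraries gave cells that the selection in the control had not used. Cells with 3 or more Fos UMIs numbered 279 of 1739 (16.0%) at 3 h and 89 of 2554 (3.48%) at 6 h, set against 870 and 1935 cells with 0. Fos-high cells were again deeper, with 80721 against 45242.5 UMIs at the median after 3 h and 71030 against 44353 after 6 h. With all cells thinned to 15000 UMIs, 34.6% of control cells, 21.5% at 3 h and 9.08% at 6 h held a Fos UMI.

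Jun was 89.1 CPM against 38.9 CPM at 3 h (log2 1.20, 1.00 to 1.39) and 59.9 CPM against 29.7 CPM at 6 h (1.02, 0.66 to 1.34). Fosb was 21.7 CPM against 9.12 CPM at 3 h (1.26, 0.84 to 1.66) and 27.7 CPM against 5.31 CPM at 6 h (2.40, 1.83 to 2.91). Egr1 was 56.2 CPM against 20.5 CPM at 3 h (1.45, 1.19 to 1.71), and at 6 h it was under the floor, at 5.24 against 2.58 CPM (1.11, -0.34 to 2.13). Fosb was under 10 CPM in cells with 0 Fos UMIs at 3 h and 6 h, so it passed the floor there only through the Fos-high group. The Jun and Fosb ratios were above equality in all 3 libraries, with this limit for Fosb and, in the control, for Jun. Ier2 was again nearly level, with log2 ratios of 0.13 (0.06 to 0.20) and 0.06 (-0.10 to 0.22).

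Most p53 targets were higher in both cycloheximide libraries as well. Of 12 past the floor, 11 (3 h) and 9 (6 h) had intervals above equality, their median log2 ratios being 0.46 and 0.42, where 8.04% and 6.53% of all genes did. None of them had an interval below equality in either library, against 4.74% and 3.93% of all genes. Cdkn1a was 49.9 CPM against 24.7 CPM at 3 h (1.02, 0.76 to 1.27) and 110 CPM against 55.3 CPM at 6 h (1.00, 0.74 to 1.24). Perp was at 1.01 (0.71 to 1.30) and 1.28 (0.92 to 1.62), and Btg2 at 1.78 (1.55 to 2.00) and 1.17 (0.82 to 1.48), above their control ratios of 0.60 and 0.49. Sdc4 was at 1.17 and 0.84 and Neat1 at 0.71 and 1.49. Klf4, in contrast, was at 0.11 (-0.00 to 0.23) and 0.12 (-0.12 to 0.35), and Lefty1 at -0.23 (-0.71 to 0.21) and 0.57 (-0.52 to 1.39). Differences between libraries in these ratios were not tested, because each condition had 1 library.

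Of the 21 genes higher in the control, 15 passed the floor at 3 h, 13 of them had intervals above equality and 10 were past 1.5-fold, which is 47.6% of the control list and 13.7% of the 73 genes (0.944% of 7737) past it at 3 h. At 6 h, 13 passed the floor, 9 had intervals above equality, 1 (Rhox5) had an interval below, and 8 were past 1.5-fold, which is 38.1% of the control list and 2.82% of the 284 genes (3.63% of 7820) past it at 6 h. Of the 5 lower genes, 1 was past 1.5-fold lower at 3 h and 1 at 6 h. Fewer Fos-high cells at 6 h give wider intervals there.

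**Figure D4:**
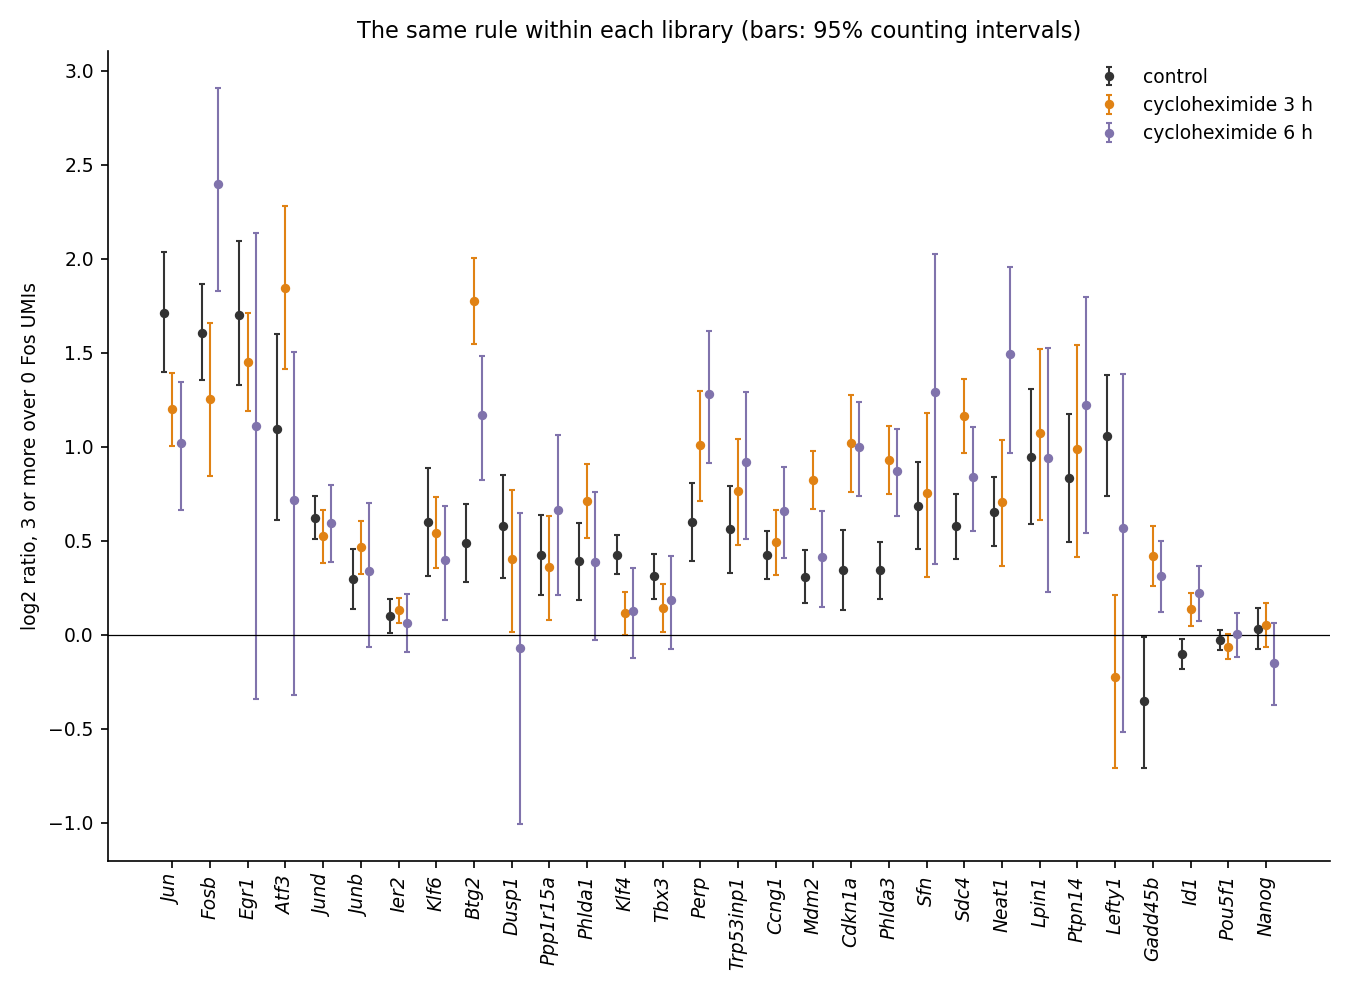
Log2 ratio of cells with 3 or more over cells with 0 Fos UMIs (vertical) for 30 genes (horizontal) in the control (black), at 3 h (orange) and at 6 h (purple) of cycloheximide, with 95% counting intervals. Jun, Fosb and Jund lie above 0 in all 3 libraries, Klf4 is above 0 in the control and has intervals that reach 0 in the others, and Gadd45b is below 0 in the control and above 0 in the others.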

How the data were processed

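Single-cell RNA libraries of 3 conditions, 1 each, were analysed. The authors deposited raw UMI counts per gene and barcode, made with Cell Ranger 4.0.0 on mm10 per the submitters' processing notes, and the annotation is not given in the sources used here. The deposited lists name 32285 genes and 6794880 barcodes per library, so called cells were not marked. Of the gene identifiers, 32235 matched GENCODE M21 on GRCm38, used for gene positions, and 78 rows with shared symbols were kept apart by identifier. How the counting treated overlapping or near-identical genes is not given in the sources used here, so antisense and overlapping genes are uncertain.

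Barcodes with at least 15000 UMIs and 1 to 20% mitochondrial UMIs were kept. This left out 62 control barcodes under 1% and 0 over 20%. Library totals were 127601369 UMIs (control), 115188502 (3 h) and 150987519 (6 h). Cells were grouped on unthinned Fos UMIs, then each was thinned without replacement to 15000 UMIs with a fixed seed. Summed counts became CPM, and log2 ratios used a prior of 0.5 counts. Sums have exact Poisson intervals, ratios exact conditional binomial intervals and shares exact Clopper-Pearson intervals, all at 95% and for counting error only. With depth or cell cycle weights the weighted sums were entered as counts, so those intervals are not exact. Phases came from the scanpy 1.11.5 gene scores. Doublets were not removed, and cells over 2 times the median UMIs were left out in an alternative. Free RNA was read from barcodes of 10 to 100 UMIs.

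The genes named were all 26 immediate early genes other than Fos; the 15 highest and 15 lowest ratios at a mean of at least 20 CPM whose intervals exclude equality; up to 3 genes of each other list; and the genes past 1.5-fold. S100a6, Gm42418, Dapk1 and Xpc were added after their values were seen, and so was the group of endoderm regulators. The cells, lists and rules were chosen with earlier results of these data known. The scripts were tested on simulated data. Alternatives covered the Fos minimum, grouping after thinning, depth and cell cycle weights, thinning depth, seed, filters, floor, prior and scaling (median-of-ratios factors, and TMM from edgeR 4.0.16 under R 4.3.3). Python 3.11.15, numpy 2.4.6, scipy 1.17.1 and pandas 2.3.3 were used.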

Additional observations from a re-analysis of the deposited data

Results flagged for a closer look

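For 5 of the genes named, the interval of the log2 ratio between cells with 3 or more and cells with 0 Fos UMIs lay on opposite sides of equality in the control and in a cycloheximide library. Id1, a repressor of differentiation, had -0.10 in control cells and 0.14 and 0.22 after 3 h and 6 h. Gadd45b, a stress-induced gene, had -0.36 in control cells and 0.42 and 0.31 after 3 h and 6 h, and its levels in cells with 0 Fos UMIs were 14.6, 84.1 and 147 CPM. The actins showed small ratios of opposite sign, with Actb at 0.036 in the control and -0.033 at 3 h, and Actg1 at -0.078 in control cells and 0.11 and 0.11 after 3 h and 6 h. Rhox5 was at 0.74 in the control and -2.10 at 6 h, where it rested on 5 UMIs in 89 cells against 512 UMIs in 1935 cells. Over all genes past the floor in both libraries, 38 had such opposite intervals at 3 h and 25 at 6 h. These differences between libraries were not tested, since each condition had 1 library.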

How the results depend on the processing

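All values rest on 1 control library, so no alternative speaks to variation between cultures. No paired analysis was possible because each condition had 1 library. With 15000 UMIs per cell, most immediate early genes had under 1 UMI per cell, and the sums limit what can be seen. Over 158 results, 2144 values under the alternatives stayed within the limits set for a same result, 207 moved and 19 were counted as changed in sign. A change of sign was counted only where the interval of the reported ratio excluded equality. Other ratios crossed 0 as well, such as Lama1, reported at 0.055 and between -0.48 and 0.46 under the alternatives. The cause was not tested.

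Of the counts of genes at least 1.5-fold higher (21) and lower (5), the values were 10 and 1 with a Fos minimum of 2 UMIs, 110 and 25 with a minimum of 6, 59 and 9 with grouping after thinning, 45 and 17 with depth weights, 12 and 2 without thinning, 32 and 9 without cells over 2 times the median UMIs, 1 and 1 with a floor of 50 CPM, and 2406 and 2191 with no floor. At a depth of 30000 UMIs 2 genes were lower, and with another thinning seed 3. Alternatives chosen after the data had been seen gave 43 and 18 with depth and cell cycle weighted together and 174 and 115 at a smaller minimum fold with an interval excluding equality; the third left out the cells with endoderm regulators. At a Fos minimum of 6 the median of the immediate early genes was 0.59, Egr1 2.29 and Ier2 0.22, and at 30000 UMIs Ier2 was 0.21. TMM and median-of-ratios factors gave 18 and 16 higher genes.

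Some ratios changed sign, among them AY036118, Atp2c1, Ap1ar and Col4a1, which were -0.57, -0.45, -0.43 and 0.88 as reported. The Actb ratio was -0.054 at a Fos minimum of 6, -0.070 with grouping after thinning and -0.0097 with 2 to 8% mitochondrial UMIs. AY036118 was 0.069 with grouping after thinning. Top2a was -0.039 with depth weights and -0.018 with depth and cell cycle weights. At 30000 UMIs Krt8 was -0.0086, Uhrf1 0.0038, Sall4 0.026, Spry4 0.056 and Ubb -0.0041. Without thinning Sall4 was 0.021 and Ubb -0.0019. With 2 to 8% mitochondrial UMIs Atp2c1 was 0.092, Ap1ar 0.18 and Spry4 0.030. With another seed Tpm4 was -0.044. Without the endoderm regulator cells Col4a1 was -0.14 and Sparc -0.014.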

Other observations

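Fos was also frequent in barcodes outside the limits used. Of the 62 control barcodes with at least 15000 UMIs and under 1% mitochondrial UMIs, 30 held 3 or more Fos UMIs. The corresponding barcodes under 1% numbered 1 at 3 h and 8 at 6 h, and 0 of them held 3 or more Fos UMIs.

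Epha2, a receptor tyrosine kinase named after its values were seen, was 52.0 CPM in cells with 3 or more Fos UMIs and 40.3 CPM in cells with 0 (log2 0.37, 0.19 to 0.55). In the cycloheximide libraries it was at 0.23 (0.01 to 0.43) at 3 h and 0.10 (-0.62 to 0.69) at 6 h. Neurod1, a neuronal transcription factor, was at 0.76 (0.40 to 1.13) in the control, 1.19 (0.67 to 1.70) at 3 h and 1.15 (0.27 to 1.85) at 6 h, and was under the floor of 10 CPM in both cycloheximide libraries.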
